A study of Mus musculus with 6 samples.

Results

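Complement genes of the subventricular zone (SVZ), the stem cell niche along the lateral ventricle, were followed in single microglia and in neural stem and progenitor cells (NSPCs) after a distant cortical stroke. The list held 9 genes chosen by symbol, namely the C1q chains C1qa, C1qb and C1qc, the components C3 and C4b, the receptors C3ar1 and C5ar1, and the integrin chains Itgam and Itgb2. Of these, 8 of the 9 were among the 34203 rows of the count table. C4b had no row, and C4a, its near-identical copy on the same chromosome, is given under its own name. All libraries came from adult Nestin-CreERT2:R26-yfp mice treated with tamoxifen, in which the nestin promoter drives the recombinase and YFP marks NSPCs and their offspring. The 3 conditions were uninjured mice, 1 day after photothrombotic ischemia (PT D1) and 7 days after it (PT D7). PT was made with the dye Rose Bengal and cold light on the cortex, and the lateral SVZ of the same hemisphere was taken. Microglia were sorted as CD11b+ CD45low cells without Ly6C or Ly6G and NSPCs as YFP+ cells, so that each of the 2 libraries of 192 sorted cells per condition held both classes. The number of mice behind a library is not given in the sources used here, hence p values measure only the spread between libraries, which may be technical. How the conditions were laid out over plates is not stated there, so the effects of plates and of conditions cannot be told apart.

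Complement is a cascade of blood and tissue proteins that tags targets for removal and calls immune cells. In its classical arm, the C1q molecule, assembled from A, B and C chains, binds a target and leads through C4 to the cleavage of C3, whose fragments are sensed by C3ar1 or by the integrin of Itgam and Itgb2 (complement receptor 3, CD11b/CD18). C5ar1 senses the C5a fragment released further down. In the brain, microglia are the main source of C1q, and microglial complement receptor 3 is known for its role in the removal of synapses.

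The C1q genes lie side by side. In GRCm39, C1qb (ENSMUSG00000036905, chr4:136606009-136613511), C1qc (ENSMUSG00000036896, chr4:136616466-136620376) and C1qa (ENSMUSG00000036887, chr4:136623223-136626161) span 20.2 kb on the minus strand, with 3 exons each and with gaps of 2954 and 2846 bases. A long noncoding gene, Gm69251, overlaps C1qb and C1qc on the other strand, and whether the authors' counting used strand is not given in the sources used here. C3ar1 (ENSMUSG00000040552, chr6:122823393-122833122, minus strand) and C5ar1 (ENSMUSG00000049130, chr7:15980668-15993465, minus strand) have 2 exons each and no overlapping gene, and C5ar1 lies 2546 bases from C5ar2, the second C5a receptor gene. Itgam (ENSMUSG00000030786, chr7:127661808-127717753, plus strand, 29 exons) overlaps the coding gene Gm49368 on its own strand, so its reads may be shared, and Itgb2 (ENSMUSG00000000290, chr10:77366086-77401542, plus strand, 16 exons) overlaps none. C3 (ENSMUSG00000024164, chr17:57510964-57535155, minus strand, 41 exons) and C4a (ENSMUSG00000015451, chr17:35028069-35042440, minus strand, 42 exons) each overlap a noncoding gene on the other strand. Promoters are shown for the C1q genes, which lie side by side and had unequal message levels, and for C3ar1, which changed after PT. Each is given as the 250 bases before the start of the main GENCODE transcript, 5′ to 3′ on the gene's strand. Capitals mark the motifs that were searched on both strands.
C1qb, chr4:136613512-136613761: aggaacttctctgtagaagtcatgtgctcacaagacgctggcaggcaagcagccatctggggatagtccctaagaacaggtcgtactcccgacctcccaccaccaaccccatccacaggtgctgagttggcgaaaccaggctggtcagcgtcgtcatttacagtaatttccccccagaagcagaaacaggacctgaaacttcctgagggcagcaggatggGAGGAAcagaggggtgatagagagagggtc
C1qc, chr4:136620377-136620626: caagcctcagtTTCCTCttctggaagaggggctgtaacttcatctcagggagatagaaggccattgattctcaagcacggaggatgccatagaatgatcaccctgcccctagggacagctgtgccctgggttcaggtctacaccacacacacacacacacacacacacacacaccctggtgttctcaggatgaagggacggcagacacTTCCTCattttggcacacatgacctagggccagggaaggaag
C1qa, chr4:136626162-136626411: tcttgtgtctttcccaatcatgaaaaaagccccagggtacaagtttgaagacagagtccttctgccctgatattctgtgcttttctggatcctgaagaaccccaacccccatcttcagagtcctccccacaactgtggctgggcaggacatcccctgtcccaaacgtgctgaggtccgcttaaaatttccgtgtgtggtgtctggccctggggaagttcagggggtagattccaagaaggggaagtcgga
C3ar1, chr6:122833123-122833372: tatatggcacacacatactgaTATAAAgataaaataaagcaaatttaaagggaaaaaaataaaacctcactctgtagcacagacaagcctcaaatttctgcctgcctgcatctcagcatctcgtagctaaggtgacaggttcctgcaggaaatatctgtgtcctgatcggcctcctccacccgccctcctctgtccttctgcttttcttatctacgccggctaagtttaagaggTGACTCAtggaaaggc
The searched motifs were the PU.1 core GAGGAA, found before 22.9% of 21769 coding genes, the AP-1 motif TGANTCA, before 6.17%, the C/EBP motif TTGCNNAA, before 9.34%, and the TATA box TATAAA, before 11.9%. C1qb held 1 PU.1 core, 30 to 25 bases before its start, and C1qc held 2 on the opposite strand, the nearer one at 42 to 37 bases. The C1qa window held none of the 4 motifs. C3ar1 held a TATA box at 229 to 224 bases and an AP-1 motif at 16 to 10 bases before its start. Of the members not shown, Itgam held 2 PU.1 cores, C3 held 1 C/EBP motif, and C5ar1 and Itgb2 held none. These matches are descriptions of letters and not of binding.

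The deposited table held 416 microglia, 222 NSPCs and 20 cells of a mixed cluster, 658 cells in all. A unique molecular identifier (UMI) was counted once per captured 3′ end, so levels were compared between genes as CPM, the UMIs of a gene scaled to the same total in every sum of cells, without division by gene length. Summed microglia held 294984 to 468186 UMIs per library and summed NSPCs 82504 to 497292, from only 15 to 19 cells in library 1 of each condition. Median depth per cell was 4854.5 UMIs in microglia and 6449 in NSPCs. Among microglia, the 8 microglia markers summed to 14806 and 14829 CPM in uninjured, 7376 and 5141 CPM in PT D1 and 11058 and 10758 CPM in PT D7 libraries. Markers of other cells were also found among microglia. The neutrophil list reached at most 4.47 CPM. The monocyte list reached at most 75.9 CPM, in PT D1 library 2, where Ccr2, Plac8 and Vcan were detected, against 2.78 CPM in PT D1 library 1. Of that list, Ly6c2 was at 0 in every library. The border-associated macrophage list lay between 149 and 399 CPM except in PT D1 library 2, where it reached 1226 CPM, of which Cbr2 made up 1208 CPM while Mrc1 stood at 6.70 and Cd209f at 0. The choroid plexus list was at 10552 and 4678 CPM in uninjured microglia and between 196 and 617 CPM after PT. The oligodendrocyte list lay between 275 and 918 CPM and was highest in PT D7 library 2. In NSPCs the choroid plexus list was at 1523 and 3819 CPM in uninjured libraries and between 47.4 and 97.0 CPM after PT. Their oligodendrocyte list lay between 62.6 and 991 CPM. The part of these lists in the results was not tested. All 8 microglia markers were detected in the microglia of every library. NSPCs of every library held 7 or 8 of them, at 181 to 1297 CPM in sum. In NSPCs the neuroblast list stood at 2621 to 4464 CPM and the type C progenitor list at 939 to 2318 CPM. In microglia these lists reached at most 410 and 344 CPM.

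C1q chains were the most frequent complement messages of SVZ microglia. Over all microglia C1qb stood at 5049 CPM, C1qc at 3286 CPM and C1qa at 1196 CPM, followed by Itgam at 412 CPM, Itgb2 at 324 CPM, C3ar1 at 235 CPM and C5ar1 at 94.6 CPM. C3 was nearly absent, with 5 UMIs in all microglia (2.24 CPM). A C1qb UMI was found in each of the 416 microglia and a C1qc UMI in 98.3% of them, whereas C1qa was detected in 92.5%, Itgam in 73.8%, Itgb2 in 70.7%, C3ar1 in 57.2% and C5ar1 in 26.0%. After all cells were thinned to 1000 UMIs, the shares were 97.1% for C1qb, 91.1% for C1qc, 63.0% for C1qa, 31.5% for Itgam, 27.4% for Itgb2, 19.5% for C3ar1 and 6.49% for C5ar1. NSPCs, thinned alike, held a C3ar1 UMI or a C5ar1 UMI in 0.450% of cells each.

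One day after PT, microglia carried more messages for the receptors C5ar1 and C3ar1. No other member passed the test across all 4846 genes in edgeR (2 of 7 tested members called, beside 5.7% of all genes tested). C3 and C4a had too few UMIs to be tested. The median log2 fold change of the 7 members was 0.41, beside 0.04 over all genes tested. Levels of summed microglia are given here in CPM scaled by TMM.

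C5ar1, the receptor for C5a on myeloid cells, stood at 36.8 and 31.1 scaled CPM in uninjured microglia. PT D1 libraries had 246 and 206, and PT D7 libraries 29.2 and 37.1 scaled CPM. Both PT D1 libraries lay far above the other 4, which overlapped. The rise at PT D1 was 6.64-fold (log2 2.73, SE 0.31, adjusted p = 0.000809 in edgeR), and C5ar1 ranked 12th by p among the genes tested. By cells, 52.1% and 47.4% of PT D1 microglia held a C5ar1 UMI, against 12.7% and 15.5% of uninjured and 5.56% and 16.7% of PT D7 microglia. Thinned to 1000 UMIs, the shares were 19.7% and 13.2% at PT D1 and 1.41% and 2.38% in uninjured microglia, and at PT D7 none of the 54 and 60 thinned cells held one, which at that depth allows up to 5.56% and 5% of cells with a UMI. In sums of the thinned cells, which keep few UMIs of this gene, the adjusted p was 0.0631.

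C3ar1, the receptor for C3a, was at 159 and 162 scaled CPM in uninjured microglia. It reached 480 and 338 in PT D1 libraries, and PT D7 libraries had 196 and 174. The PT D1 libraries were again above all others, with library 1 higher than library 2. The difference from uninjured microglia was 2.54-fold (log2 1.35, SE 0.26, adjusted p = 0.0153 in edgeR). This call was lost when uninjured library 1 (adjusted p = 0.204) or library 2 (adjusted p = 0.183) was left out, while the log2 fold change stayed at 1.31 and 1.35. A C3ar1 UMI was found in 76.1% and 73.7% of PT D1 cells and in 43.7% and 51.2% of uninjured cells. Both receptors were detected together in 30 of 71 and 29 of 76 PT D1 microglia, and neither in 10 and 13. In the uninjured libraries both were found in 4 of 71 and 9 of 84 cells. These counts follow the levels of the genes and the depth of the cells and are no test of a joint change.

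At PT D1 the log2 differences of the C1q chains ran from 0.01 to 0.61, none was called, and differences between chains were not tested. C1qb was at 4588 and 4317 scaled CPM in uninjured microglia and at 7771 and 5781 at PT D1 (log2 0.61, SE 0.26, adjusted p = 0.209 in edgeR), with no overlap between the groups. C1qc had 3367 and 3134 against 4344 and 3064 scaled CPM (log2 0.19, SE 0.26, adjusted p = 0.742). C1qa had 1413 and 1237 against 1437 and 1238 scaled CPM (log2 0.01, 95% interval -0.55 to 0.58), so its libraries overlapped.

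Itgam, the CD11b chain on which the cells had been sorted as protein, stood at PT D1 at 358 and 262 scaled CPM against 572 and 475 in uninjured microglia (log2 -0.76, SE 0.26, adjusted p = 0.12 in edgeR), and did not pass the test. Itgb2, its CD18 partner, was at 450 and 325 against 246 and 332 scaled CPM (log2 0.41, adjusted p = 0.399), with overlapping libraries. Thus 4 of the 7 tested members (C1qb, C3ar1, C5ar1 and Itgam) did not overlap between the groups, beside 51.4% of all genes tested. No label pairs libraries of equal number across conditions, but they deviated together weakly in microglia (correlations of 0.22, 0.193 and 0.262). With the library number as a replicate block in edgeR, C1qb (log2 0.59, adjusted p = 0.0332) and Itgam (log2 -0.76, adjusted p = 0.0235) also passed. That made 4 members, and the share of all genes called with this block is not given here. Leaving out PT D1 library 1 likewise brought Itgam past the test (log2 -1.02, adjusted p = 0.0325).

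**Figure D1:**
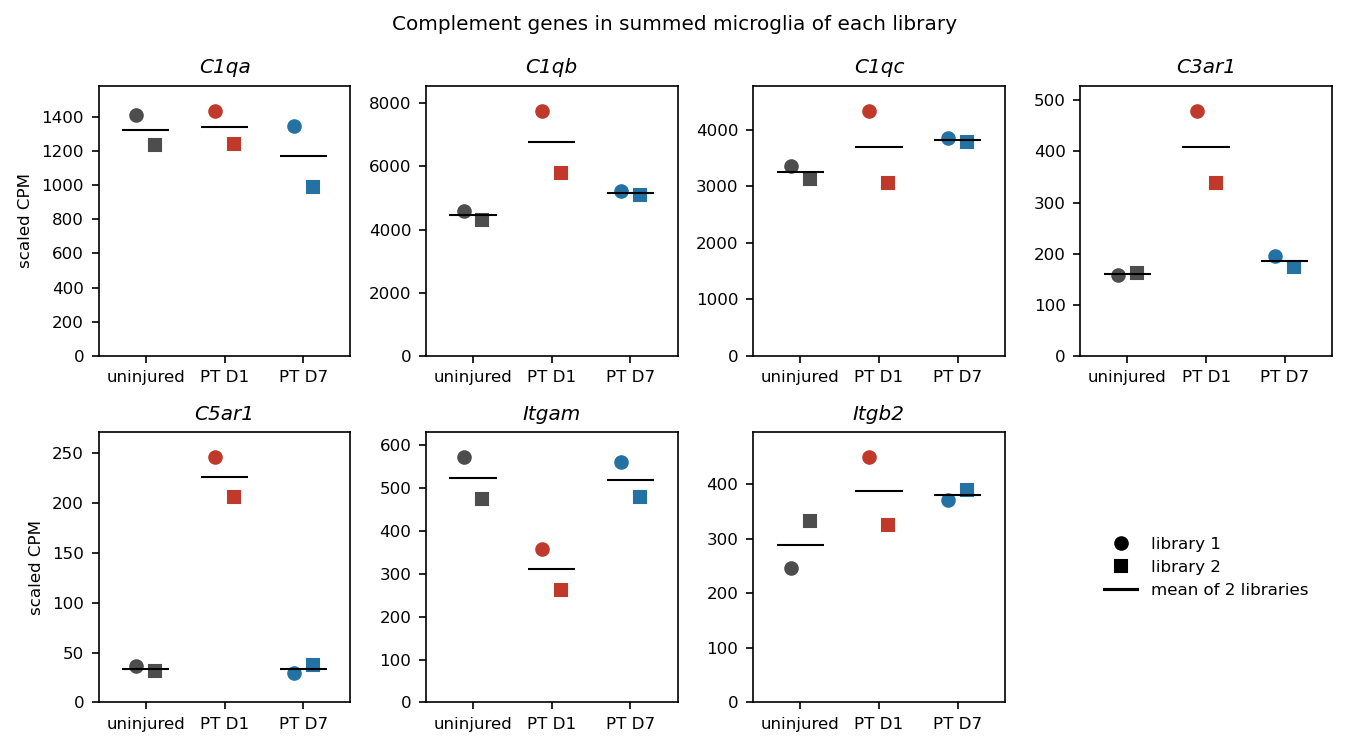
TMM-scaled CPM of 7 complement genes in the summed microglia of each library, by condition, with each axis starting at 0. Circles are library 1, squares library 2 and lines the mean of both. C5ar1 and C3ar1 were higher in both PT D1 libraries than in the other 4, and Itgam was lower in both.

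At PT D7 the receptor levels were back near those of uninjured microglia. No member was called between PT D7 and uninjured microglia in edgeR, beside 0.165% of all genes tested. None had an unadjusted p under 0.05 there (7.33% of all genes did). DESeq2 called no member either, and its share over all genes is not given here. The log2 differences were -0.02 for C5ar1 (95% interval -0.88 to 0.85), 0.21 for C3ar1 (-0.40 to 0.81), -0.01 for Itgam (-0.57 to 0.55) and 0.39 for Itgb2 (-0.20 to 0.98). C1qb was at 5225 and 5099 scaled CPM and C1qc at 3851 and 3782, both slightly above the uninjured libraries (log2 0.21 and 0.23), while C1qa with 1349 and 990 overlapped them. The interval for C1qb (-0.37 to 0.79) included its own log2 difference at PT D1. The libraries of 4 of the 7 members (C1qb, C1qc, C3ar1 and Itgb2) did not overlap, beside 39.4% of all genes tested.

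Between PT D7 and PT D1, C5ar1 fell by 2.75 on the log2 scale (SE 0.33, adjusted p = 0.00128 in edgeR) and C3ar1 fell by 1.138 (SE 0.27, adjusted p = 0.0397), which made 2 of 7 tested members called, beside 3.8% of all genes tested. This comparison shares its PT D1 libraries with the one above. The C3ar1 call was lost in 10 of 17 alternatives, among them leaving out either uninjured library (adjusted p = 0.119 and 0.118), PT D1 library 1 (0.0927), PT D7 library 1 (0.195) or PT D7 library 2 (0.206), and in DESeq2 (0.121), with log2 fold changes between -0.82 and -1.18. Itgam had a log2 difference of 0.74 (adjusted p = 0.15), which passed with the replicate block (0.75, adjusted p = 0.0354), in cells at most 10% mitochondrial (1.03, adjusted p = 0.0229) and without PT D1 library 1 (1.03, adjusted p = 0.0408). C1qb had -0.39 (adjusted p = 0.462) and C1qc 0.04 (adjusted p = 0.956). Libraries of C1qb, C3ar1, C5ar1 and Itgam did not overlap, 4 of 7 members, beside 46.8% of all genes tested.

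Receptor messages also differed in level between the authors' subclusters. Clusters were drawn from the same counts, so their levels are described and not tested. Cluster 0, the homeostatic microglia, held 76.1% and 83.3% of uninjured microglia and 33.3% and 53.3% of those at PT D7. All 104 cells of cluster 1, the activated microglia, came from PT D1, where they made up 90.1% of library 1 and 52.6% of library 2. Cluster 3, labelled development-associated, made up 46.1% of PT D1 library 2 and 1.41% of library 1. PT D1 gave 36 of its 41 cells, so in clusters 1 and 3 the cluster and the condition cannot be told apart. Cluster 4, labelled disease-associated, held 29.6% and 21.7% of PT D7 microglia, and cluster 2 is of unknown type by its label.

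C5ar1 was at 239 CPM in cluster 1 and 148 CPM in cluster 3, against 36.9 CPM in cluster 0, 37.2 CPM in cluster 4 and 11.8 CPM in cluster 2. In cluster 1 the libraries gave 246 and 227 CPM, and cluster 3 in PT D1 library 2, the only library with at least 10 of its cells, gave 155 CPM, above the 42.7 and 55.5 CPM of cluster 4. Cluster 4 and cluster 0 overlapped over their libraries. C3ar1 followed the order cluster 1 with 399 CPM, cluster 3 with 284, cluster 4 with 268, cluster 0 with 158 and cluster 2 with 101, and only clusters 0 and 2 overlapped over their libraries.

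C1qb was highest in cluster 1 at 6902 CPM, then in cluster 4 at 5462, cluster 0 at 4851, cluster 3 at 4239 and cluster 2 at 2764, with no overlap between neighbours in this order over libraries with at least 10 cells, of which cluster 3 had 1. C1qc and C1qa overlapped among clusters 0, 1 and 4, at 3591 to 4019 CPM and 1344 to 1383 CPM, and were lowest in cluster 2 at 1838 and 648 CPM. Itgam was highest in cluster 0 at 584 CPM, which overlapped cluster 4 over their libraries. Its lowest level was 195 CPM in cluster 3, where 1 library had at least 10 cells. Itgb2 was highest in cluster 4 at 431 CPM, which overlapped cluster 1 over their libraries, and lowest in cluster 2 at 172 CPM. Cluster 2 thus had the lowest level of every tested member except Itgam.

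**Figure D2:**
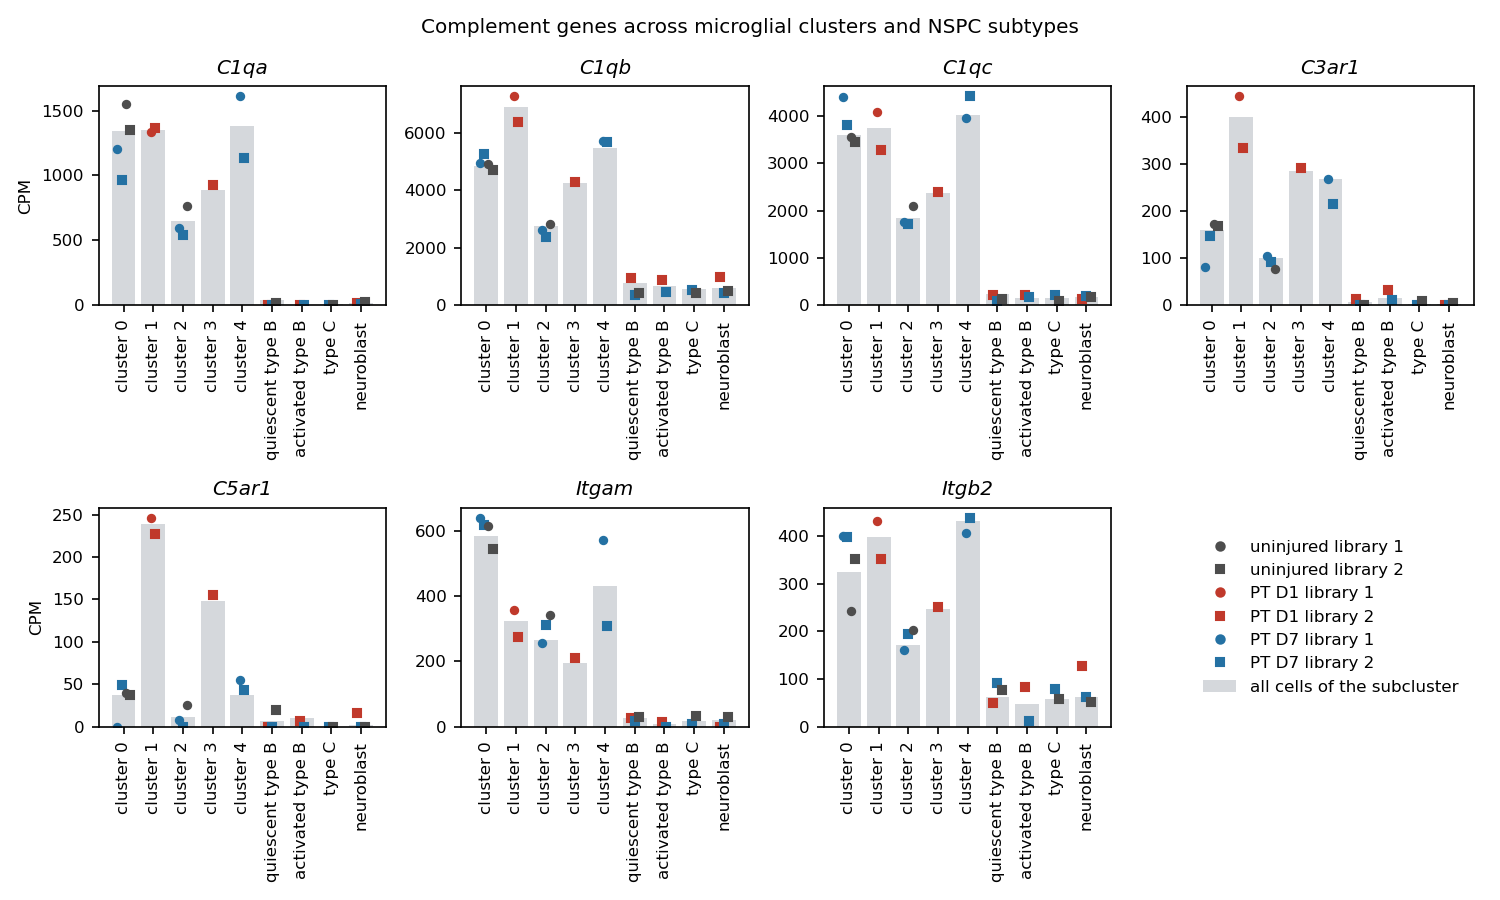
CPM of 7 complement genes in the 5 microglial clusters and 4 NSPC subtypes, with each axis starting at 0. Bars pool all cells of a subcluster, and points are libraries with at least 10 of its cells, coloured by condition. C5ar1 stood out in clusters 1 and 3, while C1qb was present at a low level in each NSPC subtype.

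Cluster 0 was the only cluster with at least 10 cells in both libraries of uninjured and PT D7 mice that could be compared across conditions as one type. In it, 6 members were tested and none was called in edgeR, beside 0.153% of 2618 genes tested. None had an unadjusted p under 0.05 there (6.8% of all genes did). DESeq2 called no member either, and its share over all genes is not given here. C1qa was at 1837 and 1638 scaled CPM in uninjured and 1345 and 1175 in PT D7 cluster 0 cells (log2 -0.47, SE 0.25, adjusted p = 0.759). C3ar1 was at 204 and 203 against 89.7 and 178 scaled CPM (log2 -0.50, adjusted p = 0.876), from only 18 and 32 cells at PT D7. C1qb, with 5813 and 5683 against 5542 and 6400 scaled CPM, overlapped, as did Itgam. The other 4 of 6 members did not, beside 35.6% of all genes tested.

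C1qb took a larger share of the C1q messages in both PT D1 libraries than in the other 4. In uninjured microglia C1qb took 49.0% and 49.7% of all C1q UMIs, C1qc 35.9% and 36.1%, and C1qa 15.1% and 14.2%. At PT D1 C1qb took 57.3% in both libraries, C1qc 32.1% and 30.4%, and C1qa 10.6% and 12.3%. At PT D7 C1qb was back at 50.1% and 51.7%, with C1qc at 36.9% and 38.3% and C1qa at 12.9% and 10.0%. With 2 libraries a group these shares were not tested. By cluster, C1qb took 57.5% of C1q UMIs in cluster 1 and 56.6% in cluster 3, and 49.6% to 52.6% in clusters 0, 2 and 4.

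Across the 416 microglia, which share libraries and differ in depth, C1qb and C1qc had a Spearman correlation of 0.64 in UMIs scaled to the total of each cell, C1qa and C1qc 0.64, and C1qa and C1qb 0.57. After thinning to 1000 UMIs they were 0.42, 0.30 and 0.28. Itgam and its partner Itgb2 had 0.19 and, after thinning, 0.08, and C3ar1 and C5ar1 0.24 and 0.04. Values this weak in sparse counts describe nothing further. The median microglial cell held 45 C1q UMIs, cells ranged up to 207, and 94.7% held at least 10.

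**Figure D3:**
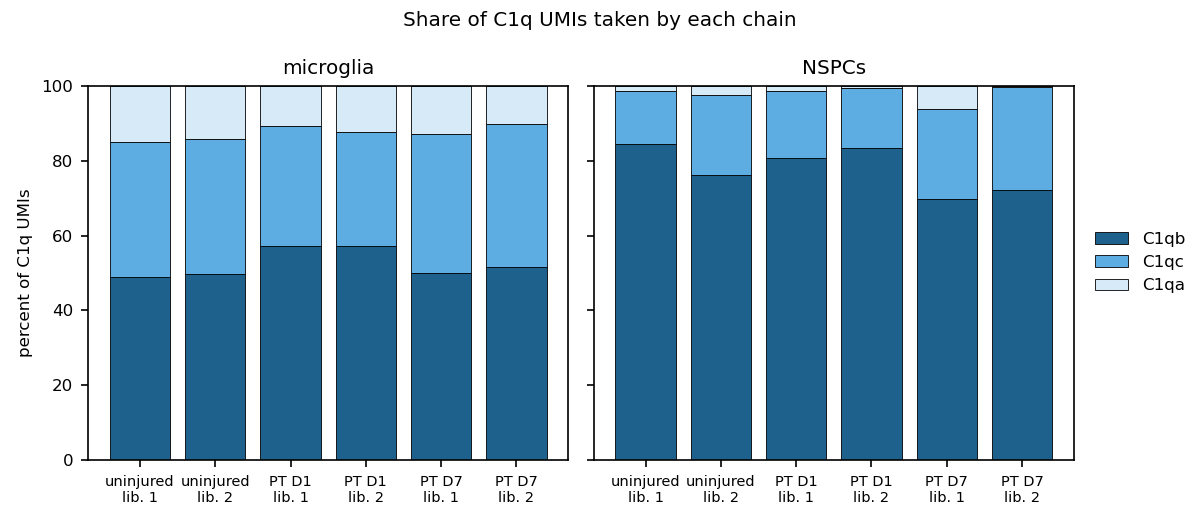
Percent of all C1q UMIs taken by C1qb, C1qc and C1qa in each library of microglia (left) and NSPCs (right). In microglia C1qb took 49.0% to 57.3%, with both PT D1 libraries at 57.3%, and in NSPCs 69.8% to 84.6%, with C1qa at most 6.20%.

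C3, on whose cleavage all complement arms converge, gave only 9 UMIs in the whole table. Of these, 5 lay in microglia, 3 of them in cluster 4, 2 in NSPCs and 2 in mixed cells. Uninjured microglia held none among 832474 UMIs, which allows a level of up to 3.60 CPM for counting error only. C4a, whose reads cannot be separated from those of the missing C4b since the authors' rule for near-identical copies is not given in the sources used here, had 64 UMIs in NSPCs, and 59 of them lay in quiescent type B cells, the resting stem cells. Its level there was 196 CPM with a UMI in 44.0% of 50 cells, against 12.01 CPM in the activated ones, while type C progenitors and neuroblasts held no UMI. Microglia held 24 C4a UMIs, 14 of them in cluster 1 and 12 in PT D1 library 1. In summed NSPCs C4a had 76.6 and 26.6 scaled CPM in uninjured, 52.2 and 84.1 in PT D1 and 79.4 and 20.0 in PT D7 libraries, and no comparison was called in edgeR (adjusted p = 0.518 to 0.995). Within quiescent type B cells C4a was at 160 CPM in uninjured, 271 CPM in PT D1 and 151 CPM in PT D7 cells, from 19, 28 and 12 UMIs, which was not tested.

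NSPCs also carried C1qb messages, and in another proportion than microglia. C1qb stood at 629 CPM over all NSPCs, 12.5% of its microglial level, and a UMI was found in 94.6% of 222 cells (47.3% after thinning). C1qc was at 165 CPM (5.03% of the microglial level) and C1qa at 13.4 CPM (1.12%), from 21 UMIs. For 5 other microglial genes the same was computed, and Csf1r, Cx3cr1, Ctss, Tmem119 and P2ry12 stood at 2.02% to 5.07% of their microglial levels. Itgam at 4.16%, C3ar1 at 2.70% and C5ar1 at 4.71% lay within that range, whereas C1qb and Itgb2 with 17.9% lay above it and C1qa below. C1qb was above all 5 genes in each of the 6 libraries (10.1% to 25.7%), and Itgb2 (7.21% to 27.7%) in 5 of the 6, from 91 UMIs in all. Of these, library 1 gave only 2 UMIs in uninjured, 5 in PT D1 and 2 in PT D7 NSPCs. Library 2 gave 30, 28 and 24 in the same order.

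These C1q UMIs were spread over the NSPC subtypes. C1qb was at 760 CPM in quiescent and 658 CPM in activated type B cells, which are the stem cells of the niche. Type C progenitors had 549 CPM and neuroblasts 587 CPM, and all 4 subtypes overlapped over libraries. C1qb took 77.9% of NSPC C1q UMIs (95% exact interval 75.5% to 80.1%) and C1qa 1.65% (1.03% to 2.51%), against 53.0% and 12.5% in microglia. The intervals cover counting error only. Only 7 of 222 NSPCs held no C1q UMI, the median cell held 5, and 32 held at least 10, which gave 36.0% of the C1q UMIs.

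PT D7 library 1 stood apart with 15 NSPCs. One of its quiescent type B cells held 78 C1q UMIs and all 8 microglia markers. It also held all 8 C1qa UMIs and the only 2 Itgb2 UMIs of the NSPCs of that library. Without this cell, C1qb in that library was at 14.5% instead of 25.7% of the microglial level and Csf1r at 2.38% instead of 13.6%, and over all NSPCs C1qb was at 11.97% and C1qa at 0.697%. In the 41 NSPCs with none of the 8 microglia markers, C1qb was at 596 CPM, C1qc at 144 CPM and Itgb2 at 55.2 CPM. These levels came from 108, 26 and 10 UMIs and were 11.8%, 4.37% and 17.0% of the microglial levels. Csf1r, Cx3cr1, P2ry12 and Tmem119 are among the 8 markers and were at 0 there by selection. They are thus no comparison for C1qb in these cells. Ctss, which is not among the markers, was at 1.57% of its microglial level. The authors' classes were named from the same counts. C1qb made up 80.0% of the C1q UMIs of these 41 NSPCs. Whether these UMIs arose in the NSPCs themselves was not tested.

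**Figure D4:**
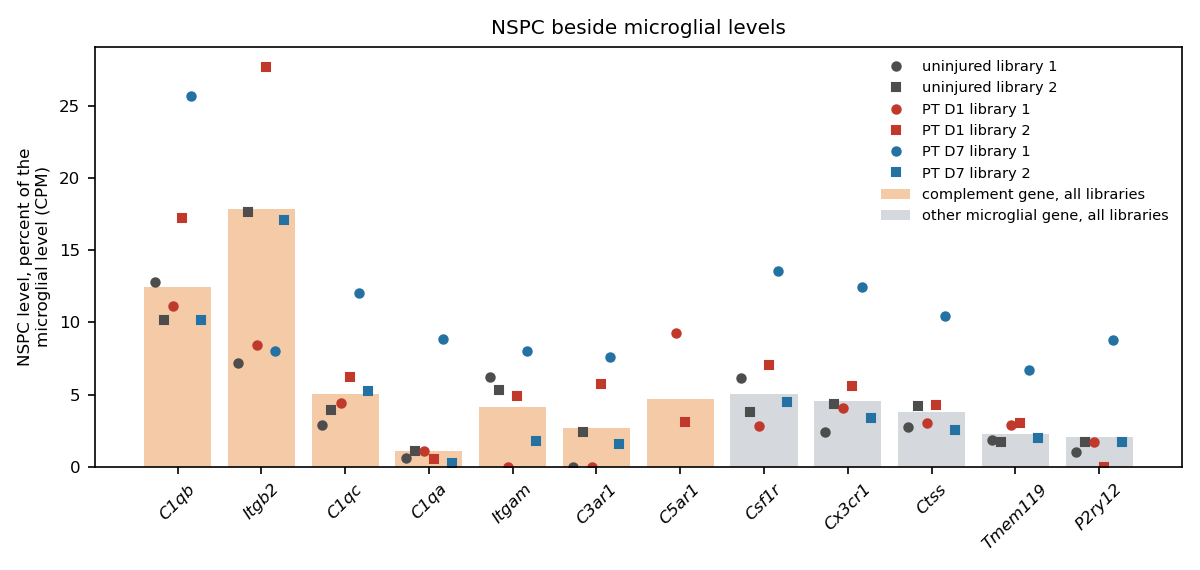
CPM of summed NSPCs as a percent of CPM of summed microglia for 7 complement genes and 5 other microglial genes. Bars pool all libraries, and points are single libraries where microglia held at least 20 UMIs of the gene. C1qb at 12.5% and Itgb2 at 17.9% lay above the 2.02% to 5.07% of the 5 other genes, and PT D7 library 1 was high for most genes.

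Between conditions, only C1qb, C1qc and Itgb2 had enough UMIs in NSPCs to be tested, and none was called in edgeR in any comparison. One of the 3 had an unadjusted p under 0.05 in each comparison with uninjured NSPCs and none in the third, beside 14.8%, 4.69% and 10.8% of all genes for PT D1, PT D7 and PT D7 against PT D1. In the same order, edgeR called 2.12%, 0.0815% and 0.632% of 4907 genes tested. DESeq2 called none of the 3 members either, and its share over all genes is not given here. C1qb was at 632 and 544 scaled CPM in uninjured NSPCs, 850 and 1039 in PT D1 ones and 1191 and 531 in PT D7 ones. Its PT D1 libraries lay above the uninjured ones (log2 0.71, SE 0.27, adjusted p = 0.204), as did those of C1qc, while Itgb2 overlapped, so 2 of 3 members did not overlap, beside 45% of all genes tested. For C1qb the log2 difference was 0.69 without PT D7 library 2, and 0.55 to 0.85 over all 15 alternatives. C1qc was at 105 and 152 scaled CPM in uninjured and 410 and 203 in PT D7 NSPCs (log2 0.99, SE 0.34, adjusted p = 0.834). It was the 1 of 3 members whose PT D7 libraries stood apart from the uninjured ones, beside 33.8%, and from those of PT D1, beside 41.4% of all genes tested. Without the 49 NSPCs that held 3 or more microglia markers, the PT D7 difference of C1qc was -0.16 and that of C1qb -0.33 on the log2 scale.

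The rest of the complement system was sparse in both classes. Of 50 further complement genes listed, 48 had a row, 10 of them held at least 20 UMIs in microglia and 6 in NSPCs, and 15 held none in either. None of the 11 further initiation genes and none of the 6 terminal pathway genes reached 20 UMIs in either class. Among the highest in microglia were Calr at 323 CPM and Lrp1 at 246 CPM, which together form a receptor for C1q on phagocytes. The highest in NSPCs were Clu, a terminal pathway inhibitor, at 812 CPM, Calr at 190 CPM and C1qbp at 120 CPM. Of the 9 tested in microglia, 1 was called at PT D1 against uninjured and none at PT D7 against uninjured or PT D1. These counts stand beside 5.7%, 0.165% and 3.8% of all genes tested, in the same order. Csmd3, a membrane protein with complement control domains, was at 159 and 108 scaled CPM in uninjured microglia and at 27.3 and 19.4 at PT D1 (log2 -2.50, SE 0.41, adjusted p = 0.00641 in edgeR). Its PT D7 libraries had 96.1 and 51.9 scaled CPM, which passed in neither other comparison (adjusted p = 0.662 and 0.0718). Of Clu, C1qbp, Calr and Lrp1, the 4 tested in NSPCs beside C4a, none was called in edgeR, with 3 at an unadjusted p under 0.05 for PT D1 and none for PT D7 against uninjured NSPCs, and 4 for PT D7 against PT D1, beside the same 14.8%, 4.69% and 10.8% of all genes. Calr had the lowest adjusted p there, with 149 and 134 scaled CPM in PT D1 against 354 and 254 in uninjured NSPCs (log2 -1.06, SE 0.30, adjusted p = 0.0639).

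Over the 9 subclusters, the genes whose levels were most like the mean profile of the C1q chains were Ctss, Ctsc, Ly6e, Ncf1 and Hmha1 (Pearson r 0.992 to 0.997 on log2(CPM + 1), among 2645 genes). Of the members, Itgam (0.983) and Itgb2 (0.981) came closer to that profile than C3ar1 (0.945) and C5ar1 (0.832). Over the 6 microglial library sums, 4 of the 5 nearest among 2125 genes were Fam168b, Rps3, Adora3 and Gna13, none of which was among those above. These rankings are descriptions, since the points share libraries and the 5 microglial clusters stand together against the 4 NSPC subtypes.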

How the data were processed

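Single cells had been sorted into multiwell plates, with 192 cells a library, and sequenced by mCEL-Seq2, which captures 3′ ends and counts each molecule once by its UMI. The deposited values are UMI counts per gene and cell from the authors, together with their class and cluster labels. The submitters' processing notes name bcl2fastq 2.17.1.14 and the build GRCm39. Aligner, counter, annotation, strand use and the treatment of near-identical genes were not given in the sources used here. Per the study's methods, the authors kept cells above 1000 UMIs, discarded cells past 3 median absolute deviations as putative doublets, and removed cells with a high percent of mitochondrial UMIs (the deposited percent values, computed by the authors, were used for 1 alternative). The smallest cell had 1001 UMIs and the largest 27321. No doublet caller was run here. No cell name was shared between libraries, 92 spike-in rows held 0 UMIs, and 13 per-cell columns were not used.

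Counts were summed per library and class, with at least 10 cells a sum. edgeR 4.0.16 (R 4.3.3) was run with TMM scaling, its default filter on low counts and its quasi-likelihood test, all 3 conditions in 1 fit and Benjamini-Hochberg adjustment over all genes tested at 0.05. The test was run on simulated counts with a single spread for all genes and changes planted only in genes with enough counts. The outcome is not given here, and that check does not cover differences in spread between genes or genes of few UMIs. Cells were thinned to 1000 UMIs for shares of cells, and intervals are exact at 95% and cover counting error only, as does the limit of 3 counts for a level of 0. Equal library numbers deviated together in microglia (correlations of 0.22, 0.193 and 0.262 for the 3 pairs of conditions) and were taken as pairs there in an alternative with a replicate block. For PT D7 the library number was read from the cell names. Sequences and positions are from GENCODE on GRCm39, matched by symbol for all members. Genes named were the members, other complement genes that passed the test or had the highest levels, and the 5 genes nearest in profile, and some items that this rule takes are not reported here. Members and lists were chosen with earlier results of these data known. Alternatives were DESeq2 1.42.0, other scaling and filters, thinned cells, cells at most 10% mitochondrial, single conditions or clusters left out, and each library left out. Added after the data were seen were the NSPC levels without the cell richest in C1q, without cells with 3 or more microglia markers, and in cells with none.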

Additional observations from a re-analysis of the deposited data

How the results depend on the processing

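The 4 calls (C5ar1 and C3ar1 at PT D1 against uninjured and at PT D7 against PT D1) kept their direction in every alternative that could test them. Of 36 pairs of member and comparison, 21 changed direction in at least 1 alternative, none of them called, and the cause was not tested. The counts of members called that follow stand without the share of all genes called, which is not given for the alternatives. Members called at PT D1 were 1 with at least 10 UMIs in every library, where C5ar1 was not testable, 4 with the replicate block, 0 in thinned cells and 1 to 3 with a library left out. Between PT D7 and PT D1 they were 1 in DESeq2, with at least 10 UMIs, with only the 2 conditions and without cluster 2, 0 in thinned cells and 1 to 2 with a library left out. In NSPCs at PT D1 they were 0 to 1 with a library left out. C1qa at PT D1 had log2 differences of -0.0028 in DESeq2, -0.11 without TMM, -0.0011 with RLE, -0.019 without a filter, -0.047 at most 10% mitochondrial, -0.26 thinned, -0.052 with 2 conditions, -0.030 without cluster 2, and -0.13 to 0.10 with a library left out, where C1qc had -0.11 to 0.40. At PT D7, C1qb had -0.020, C1qc -0.00094 and C3ar1 -0.031 without TMM, which moved the median of all genes by -0.131 and -0.235 for PT D1 and PT D7 against uninjured and by -0.103 for PT D7 against PT D1. Thinned, C3ar1 had -0.15 and Itgb2 -0.31, and without cluster 2 C5ar1 had 0.30 and Itgam 0.017. With a library left out, C1qa had -0.45 to 0.037, C5ar1 -0.19 to 0.11 and Itgam -0.15 to 0.12. Between PT D7 and PT D1, C1qc had -0.058 without TMM, -0.047 with at least 10 UMIs, -0.068 without cluster 3 and -0.18 to 0.36 with a library left out, C1qa -0.39 to 0.035 and Itgb2 -0.24 to 0.27, and Itgb2 0.083 without cluster 2. In NSPCs at PT D7, without cells of 3 or more markers C1qb had -0.33 and C1qc -0.16 (-0.27 against PT D1), Itgb2 -0.0031 with RLE and -0.020 with the replicate block, and with a library left out C1qb -0.11 to 0.97 (-0.83 to 0.28 against PT D1) and Itgb2 -1.15 to 1.51. In cluster 0, C1qb had -0.017 in DESeq2, -0.15 without a filter, -0.050 with at least 10 UMIs, -0.11 at most 10% mitochondrial and -0.092 to 0.13 with a library left out, C1qc -0.026 without a filter, Itgam -0.12 without a filter, -0.020 with at least 10 UMIs, -0.23 thinned and -0.059 to 0.088 with a library left out, and Itgb2 -0.15 thinned. Thinned to 2000 UMIs, which leaves out 52 cells, shares with a UMI were 35.9% for C3ar1, 15.4% for C5ar1, 51.6% for Itgam and 43.4% for Itgb2 in microglia, and 69.5% for C1qb and 28.6% for C1qc in NSPCs. Itgam at PT D1 was also called at most 10% mitochondrial (-1.07, adjusted p = 0.0151), beside adjusted p values of 0.0151 to 0.549 over all its alternatives. The replicate block changed the calls named beside the results and no other. In NSPCs, where equal numbers did not deviate together (correlations of 0.095, -0.0581 and -0.041), it changed none. NSPCs at most 10% mitochondrial could not be fitted, since 3 libraries kept only 2 to 4 cells. Depth limits C3 and C4a, which were not testable in microglia, and C5ar1 and C3ar1, which both lost their calls in thinned cells.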

Other observations

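C5ar2, the second C5a receptor, next to C5ar1 on chromosome 7, had 84 UMIs in microglia (37.6 CPM, in 16.8% of cells) and 3 UMIs in NSPCs. In microglia C5ar2 was at 30.4 and 38.9 scaled CPM at PT D1 against 51.0 and 39.4 in uninjured libraries (log2 -0.35, adjusted p = 0.649 in edgeR). Clu was found in 21.4% of microglia and 42.8% of NSPCs. Among the 20 cells of the mixed cluster, none lacked a C1q UMI, the median cell held 6, and 6 held at least 10.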
